A study of Ovis aries with 18 samples.

Results

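A CpG dyad is a CpG site read on both strands of the DNA, so that it holds a cytosine on the plus strand and, at the next base, a cytosine on the minus strand. The dyads described here are those of ram sperm in which the methylation levels of the strands differed by 40 points or more in 2 or more of 6 rams. They numbered 113 of the 546943 listed dyads, or 0.0207% (95% Wilson interval 0.0172 to 0.0248), and lay on 24 of the 26 numbered chromosomes. They were chosen by these same methylation levels, so the size of their strand differences is a description and not a finding.

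Sperm came from 3 control Polypay rams (Ram410, Ram423 and Ram444), fed a basal diet, and from 3 methionine-treated rams (Ram424, Ram498 and Ram511), whose feed was that diet topped with rumen-protected methionine (1.5 g, 0.22% of the diet). The rams averaged 88 days of age when the 77 days of feeding began, and semen was collected after the feeding had ended. Each ram gave 1 library of reduced representation bisulfite sequencing (RRBS), a method that reads CpG-rich restriction fragments after bisulfite has turned unmethylated cytosines into thymines. The methylation level is the share of reads in which the cytosine was kept, the ram was the replicate, and every listed cytosine had at least 10 reads in each ram.

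The sequence CG reads the same on both strands, and in most cells the methylation of the strands is copied at each division by the maintenance enzyme DNMT1, which recognises CpG sites methylated on the parent strand and methylates the new strand. A site methylated on only a single strand is called hemimethylated. In sperm, as in other mammalian cells, most CpG sites outside CpG islands carry methyl groups on both strands, while the dense islands of promoters are mostly free of them. Bisulfite reads a T in the genome as an unmethylated cytosine, so a C-to-T variant on an allele lowers the level on that strand. RRBS reads of the strands come from different molecules, so no read shows both cytosines of a dyad.

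Large strand differences were rare among the listed dyads. No ram was at 40 points in 545508 dyads, 1 ram was in 1322, 2 rams were in 76, 3 rams in 23, 4 rams in 7, 5 rams in 3 and all 6 rams in 4. The mean absolute difference between strands over all dyads was 1.81 to 2.36 points per ram. Of the 113 unequal dyads, 57 had the plus strand higher in the pooled reads and 56 the minus strand. In 48 of the 113 the strand difference had the same sign in all 6 rams. In 7, all with exactly 2 rams at the threshold, those rams went in opposite directions, as at chr21:47325840-47325841, where the plus strand was 40.7 points higher in Ram410 (56.5% against 15.8%) and 42.4 points lower in Ram511 (17.6% against 60%).

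**Figure D1:**
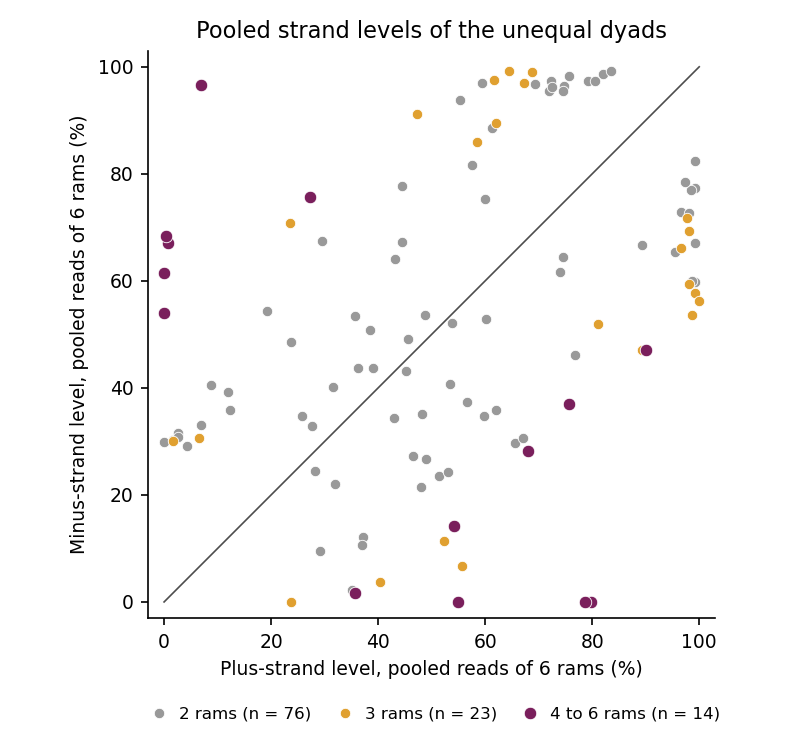
Plus-strand level (x axis, %) against minus-strand level (y axis, %) of the 113 unequal dyads, each from the pooled reads of 6 rams, with the line of equal levels. Of the 14 dyads with 4 to 6 rams at 40 points, the 7 with 5 or 6 rams lie farthest from the line, with differences of 54.9 to 89.8 points, and 34 dyads lie along the edges where 1 strand is over 95%.

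The pooled levels placed the unequal dyads in 3 groups, defined after the values were seen. In 34 dyads (30.1%) the higher strand was over 95% methylated and the lower strand was below, a form found in 0.329% of all listed dyads. In 17 (15%) the lower strand was under 5%, and in 62 (54.9%) both strands lay between 5% and 95%. Among all 546943 dyads, 8 had a strand under 5% with the other at 40% or more, and all 8 were among the 113, while none had a strand under 5% with the other over 95%. These shares follow in part from the rule, since a difference of 40 points needs a level away from 0 on at least 1 strand.

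Depth set how finely a single dyad could be read. At a level of 50% from 10 reads the 95% Wilson interval runs from 23.7% to 76.3%, and such intervals cover counting error only. Of the 288 values of rams at the threshold, 235 (81.6%) had intervals of the strands that did not overlap. In 78 of the 113 dyads this was so in 2 or more rams, and in 10 it was so in none. The rule chose these values by their strand differences, so separate intervals follow in part from the rule. The share with separate intervals among all dyads was not counted, so these counts are descriptions and nothing is read from them about counting error. The lowest of the 12 coverages of a dyad was 10 to 14 reads in 95 of the 113 dyads (84.1%), against 39.3% of all dyads. There were 4.42 unequal dyads per 10000 at that coverage, 0.552 at 15 to 19 reads and 0.381 at 20 to 29 reads, and the 2 unequal dyads at 30 reads or more gave 12.1 per 10000. The summed coverage of a ram was 44504409 to 75603721 reads over cytosines, while the median coverage of a strand at the 113 dyads was alike, at 20 to 25 reads per ram. Of the 113 dyads, 57 were at the threshold in Ram410, 44 in Ram423, 52 in Ram444, 67 in Ram424, 30 in Ram498 and 38 in Ram511. Over all dyads the numbers were 211 to 321 per ram, with 321 in Ram424 and 284 in Ram498.

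The 4 dyads at 40 points or more in all 6 rams lay at 3 places, and 3 of them had the plus strand higher. No dyad met the rule fixed for naming, which asked for the same direction in 6 rams with at least 20 reads on every strand of every ram, so these and the other dyads in 4 or more rams are named after their values were seen. At chr1:109922533-109922534 the plus strand was methylated at 91.3%, 80% and 90.9% in the control rams, given throughout in the order Ram410, Ram423, Ram444, and at 94.7%, 60% and 60% in the methionine-treated rams, in the order Ram424, Ram498, Ram511, while the minus strand had no methylated read in any ram. A count of 0 allows a minus-strand level of up to 9.68% to 27.3% in a single ram, from 11 to 31 reads. The next dyad, chr1:109922555-109922556, had 78.3%, 89.5% and 90.9% on the plus strand in control rams and 73.7%, 68.0% and 71.4% in methionine-treated rams, again with no methylated read on the minus strand. Both dyads were thus high on the plus strand and without a methylated read on the minus strand in each ram. On the plus strand the diets overlapped at the first dyad and not at the second, where the lowest control ram was at 78.3% and the highest methionine-treated ram at 73.7% (q = 0.841 by a logistic regression across all cytosines, which called 0.0184% of them).

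A pair of dyads on chromosome 3 had the opposite tilt. At chr3:237976521-237976522 the minus strand was at 92.5%, 94.7% and 100% in control rams and at 100%, 100% and 96.7% in methionine-treated rams. Its plus strand was at 0%, 1.96% and 7.69% in control rams and at 2.70%, 9.52% and 33.3% in methionine-treated rams. This gave the largest pooled difference of the 113 dyads, 6.86% on the plus strand against 96.6% on the minus strand. At chr3:237976449-237976450, which met the threshold in 5 rams, the minus strand ranged from 32.3% in Ram511 to 100% in Ram410, and the plus strand was at 0% in 5 rams and at 1.23% in Ram423. The level of the methylated strand thus differed widely between rams while the other strand stayed near 0.

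The remaining dyad in all 6 rams was a single methylated cytosine among unmethylated ones. At chr9:89014759-89014760 the plus strand was at 50%, 70.0% and 52.6% in control rams and at 57.1%, 52.4% and 51.0% in methionine-treated rams, from 19 to 63 reads. The minus strand had no methylated read, from 16 to 34 reads a ram. The 10 neighbouring cytosines within 50 bases had pooled levels of 1.17% on the plus strand and 0.585% on the minus strand. Even the plus-strand cytosine 2 bases away was at 0.882% ± 1.43 (SD, n = 6 rams). The high level was therefore held by the single plus-strand cytosine, and it stayed between 50% and 70.0% in all 6 rams.

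Other dyads of the same form, found in 4 rams each, lay on chromosomes 15 and 20. At chr15:40377138-40377139 the minus strand was at 66.7%, 33.3% and 64.3% in control rams and at 73.7%, 50% and 36.4% in methionine-treated rams, while the plus strand had no methylated read in any ram. Its 24 neighbours within 50 bases were at 1.64% (plus strand) and 1.15% (minus strand). At chr20:43078585-43078586 the plus strand was at 50%, 6.25% and 45.0% in control rams and at 55.6%, 0% and 56.2% in methionine-treated rams. Here 4 rams lay between 45.0% and 56.2% and the other 2, Ram423 and Ram498, near 0, so the rams split within each diet. The minus strand of this dyad was at or under 6.25% in every ram, and its 17 neighbours were at 0.218% and 0.385%. These 3 were the only ones of the 113 dyads with 4 or more neighbours and a neighbour level under 5%, as 83.1% of all dyads had.

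**Figure D2:**
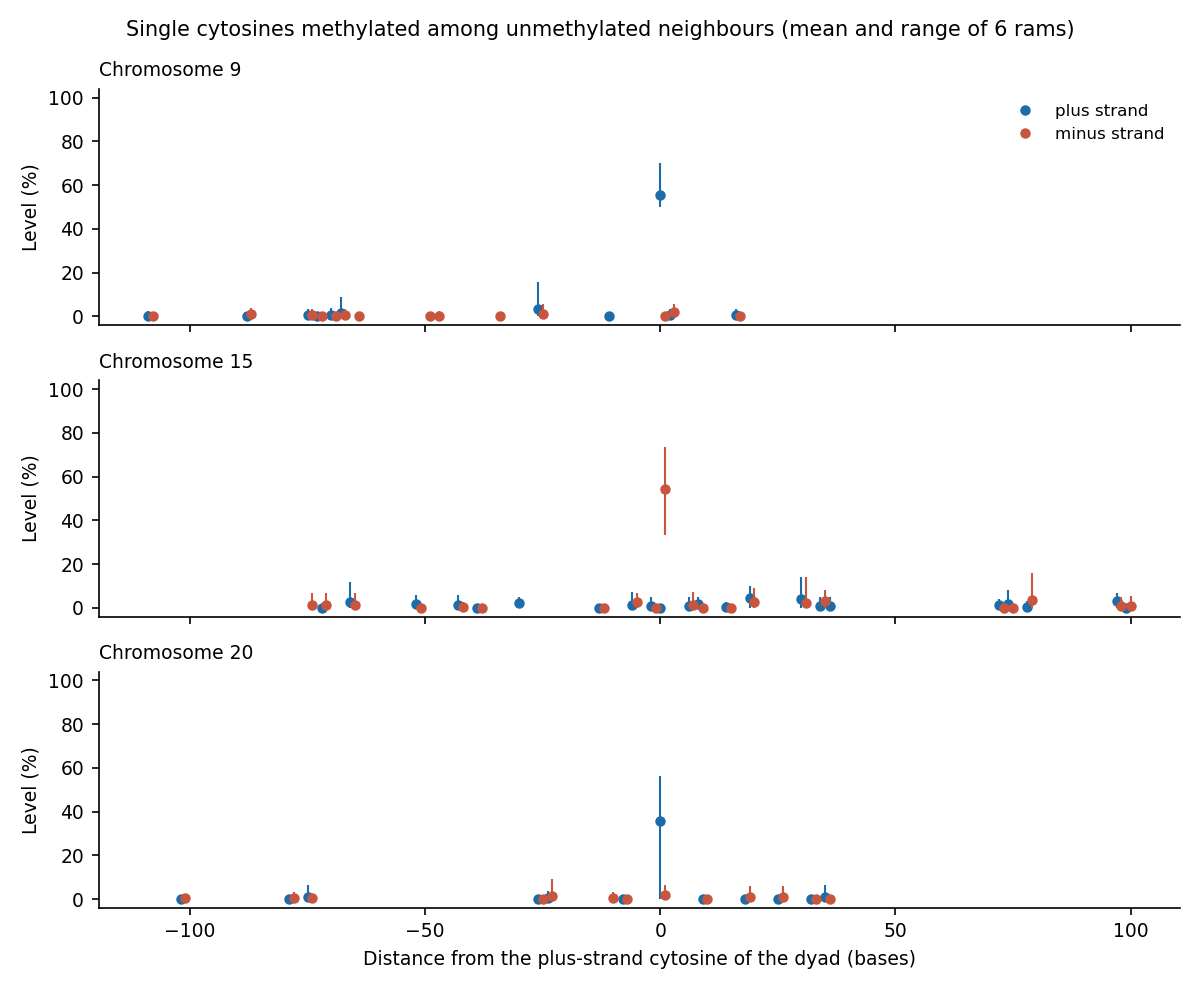
Methylation level (%) of listed cytosines within 110 bases of the plus-strand cytosine of 3 unequal dyads, by distance in bases; points are means of 6 rams, vertical lines the lowest to highest ram, blue the plus strand and red the minus strand. At each place a single cytosine stands above its neighbours, with means of 55.5% on chromosome 9, 54.1% on chromosome 15 and 35.5% on chromosome 20.

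The other dyads at the threshold in 5 rams were both higher on the minus strand and lay on chromosome 1. At chr1:230280188-230280189 the minus strand was at 66.7%, 66.7% and 60% in control rams and at 69.0%, 57.9% and 38.9% in methionine-treated rams, and the plus strand had no methylated read. At chr1:128672461-128672462 the minus strand was at 73.7%, 85.7% and 70.0% in control rams and at 35.3%, 61.5% and 68.4% in methionine-treated rams, and the plus strand was at 1.59% or less. The minus-strand cytosine at the second place had 0.365 times the coverage of its neighbours on that strand within 20 bases, whereas the median ratio was 1 on either strand over the unequal dyads with such neighbours (77 for the higher and 78 for the lower strand). Fewer reads than at the neighbours thus went with the high level at that cytosine, and the part of this in the level was not tested.

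Of the 7 dyads at the threshold in 4 rams, 5 had the plus strand higher. At chr11:24904568-24904569 the plus strand was at 43.1% to 65.9% and the minus strand at 8.33% to 16.7% over the 6 rams, so the strands did not overlap. At chr14:58453090-58453091 the plus strand was at 85.3%, 87.5% and 85.7% in control rams and at 88.9%, 60.6% and 58.3% in methionine-treated rams, against 25.8% to 44.4% on the minus strand. The strands again did not overlap, and Ram498 and Ram511 were the lowest rams on both. At chr7:25117770-25117771 the plus strand stayed at 64.6% to 81.8%, while the minus strand ran from 0% in Ram410 and Ram424 to 51.6% in Ram498. At chr8:91532664-91532665 the plus strand was at 93.3% or more in 5 rams and at 61.1% in Ram444, and the minus strand was lowest in the same ram (24.0%, against 44.0% to 60% in the others). The last dyad of this group, chr10:15886-15887, had 124 to 330 reads on the plus strand and 1335 to 3034 on the minus strand. Coverage of this height was rare, since 3 of the 113 dyads (2.65%) had a cytosine above a limit of 270 to 336 reads, set for each ram near the top of its coverages, against 0.0199% of all dyads.

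**Figure D3:**
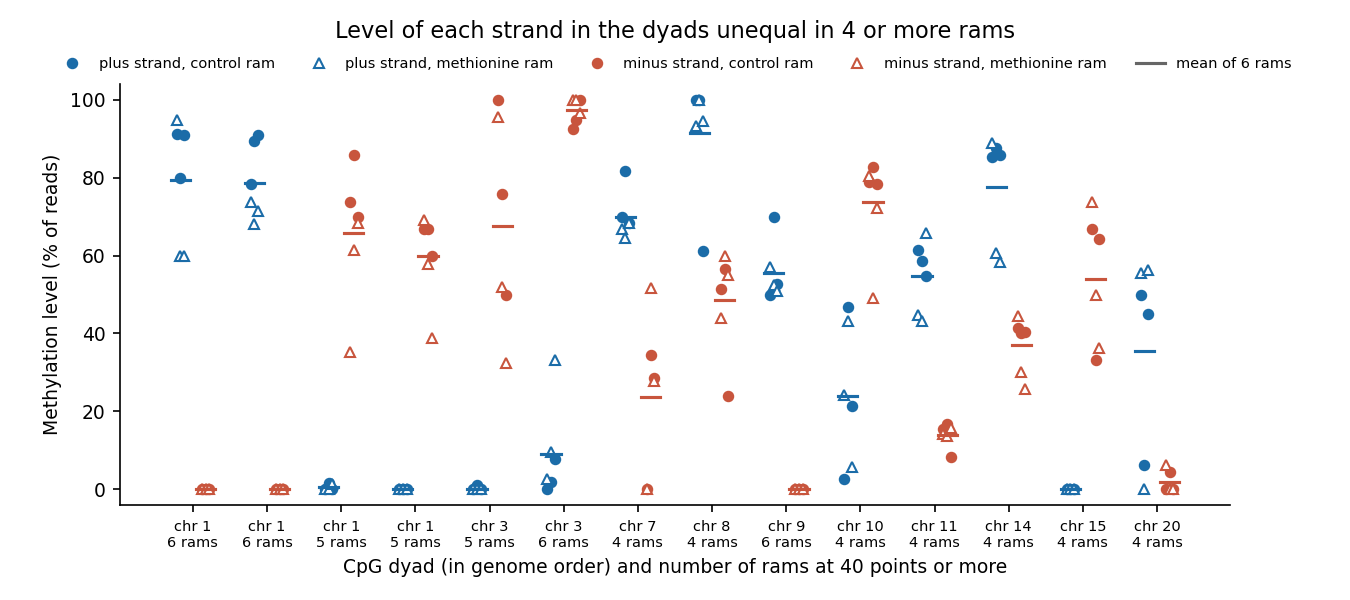
Methylation level (y axis, %) of the plus strand (blue) and minus strand (red) in each control ram (filled circles) and methionine-treated ram (open triangles) for the 14 dyads at 40 points or more in 4 to 6 rams, in genome order along the x axis; bars are means of 6 rams. In 7 of the 14 dyads the lower strand lies at 1.59% or less in all 6 rams, and on the higher strand the rams of the diets overlap in 12 of the 14. The share of all dyads that overlap was not counted, so nothing is read from this number.

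Unequal dyads often lay side by side and then tilted the same way. Of the 113, 34 lay in 13 runs of 2 to 6 dyads with no more than 100 bases between neighbours, and in all 13 runs every member had the same strand higher. Dyads of a run are read partly by the same reads, so a run is not a set of independent observations. Taking each of the 113 in turn gave 305 pairs with another listed dyad within 50 bases. A dyad near several of the 113 was counted several times. In 68 of the pairs the other dyad was itself unequal. In the 305 pairs, the other dyad tilted in the direction of the unequal dyad in 208 (68.2%) and against it in 90 (29.5%). It differed by over 20 points in the same direction in 77 (25.2%), and in the opposite direction in 9 (2.95%). The 68 pairs are all among the 77 and were chosen by the rule, so these shares do not describe the surroundings alone. Over the 102 unequal dyads with neighbours, the higher strand was the nearer to the neighbours' level in 50 and the lower strand in 52.

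The largest run, at chr13:39944558-39944602, held 6 dyads, which were all the listed dyads of its 45 bases. Averaged over the run, the plus strand was at 99.5%, 98.4% and 98.6% in control rams and at 99.4%, 98.8% and 99.0% in methionine-treated rams. The minus strand averaged 62.4%, 69.2% and 64.8% in control rams and 57.9%, 35.5% and 41.1% in methionine-treated rams. The plus strand was thus nearly fully methylated in each ram, and the minus strand was partly methylated in each, lowest in Ram498 and Ram511. In the run average the diets did not overlap on the minus strand. They did overlap at chr13:39944581-39944582, with Ram424 at 62.5% and Ram410 at 60.6%, and at chr13:39944599-39944600, with Ram424 at 62.5% and Ram444 at 61.3%. No cytosine of the run was among the differentially methylated ones, and the smallest q on the minus strand was 0.841. Only 14 to 37 reads on the plus strand and 15 to 33 on the minus strand were behind each level.

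Runs of 4 dyads lay on chromosomes 4 and 18, both with the minus strand higher. At chr18:61243743-61243773 the minus strand averaged 55.6%, 10.4% and 57.4% in control rams and 19.1%, 25.8% and 11% in methionine-treated rams, while the plus strand was at 7.50% or less. The control rams fell apart on the minus strand, with Ram410 and Ram444 over 50% and Ram423 near the methionine-treated rams. At chr4:121701530-121701585 the plus strand averaged 48.6%, 49.5% and 98.9% in control rams and 47.9%, 22.8% and 83.7% in methionine-treated rams, against 64.3% to 100% on the minus strand. In Ram444 both strands of this run were nearly fully methylated, and in Ram410 and Ram424 the plus strand was near 50% with the minus strand at 96.2% and 100%. A pair of dyads at chr4:127795644-127795685 showed this pattern with the strands exchanged, since the minus strand averaged 48.9% in Ram423 and 56.9% in Ram424 and 98.3% or more in the other 4 rams, with the plus strand at 96.2% or more throughout.

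The pair on chromosome 4 was among the 34 dyads whose higher strand was over 95% in the pooled reads. In 26 of the 34 the lower strand was at 90% or more in at least 1 ram. In the other 8 it was under 90% in all 6 rams, and these were the 6 dyads of the run on chromosome 13, chr2:44843965-44843966 (49.5% to 67.7%) and chr3:237976521-237976522. In the rams at the threshold (83 values) the median level was 100% on the higher strand and 47.1% on the lower strand (quartiles 39.1% to 53.6%). In the rams under it (121 values) the medians were 100% and 95.2%. The coverage of the strands moved with this. The median coverage of the higher strand was 15 reads in the rams at the threshold and 23.0 in the others, while that of the lower strand was 25 and 23.0 reads. The median ratio of higher-strand to lower-strand coverage was 0.591 in the rams at the threshold and 1.05 in the others. It was lower at the threshold in 31 of the 33 dyads with rams on both sides and in 6 of 6 rams. Several of these dyads lie in the same run, among them the 6 on chromosome 13, and share reads, so they are not independent observations. In the 79 other unequal dyads the ratio was 0.994 in rams at the threshold and 0.943 in the others, and it was lower at the threshold in 33 of 76 dyads. Coverage was not used by the rule except through the level, but no test was run, since the rams were sorted by the levels themselves. Genotypes of the rams were not used here, and whether a base variant lay at these dyads was not tested.

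**Figure D4:**
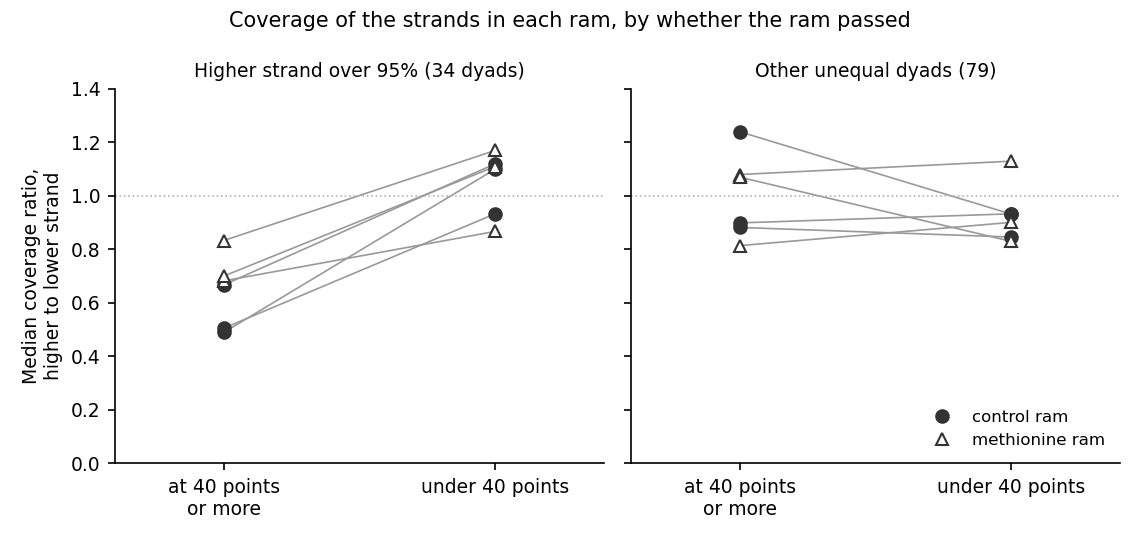
Median ratio of the coverage of the higher strand to that of the lower strand (y axis) in each ram, over the dyads in which that ram was at 40 points or more and over those in which it was under, for the 34 dyads with the higher strand over 95% (left) and the 79 others (right); filled circles are control rams and open triangles methionine-treated rams, lines join a ram, and the dotted line is a ratio of 1. On the left all 6 rams have the lower ratio at the threshold (0.489 to 0.833 against 0.867 to 1.17).

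The surroundings of the unequal dyads were less often unmethylated than those of all listed dyads. Neighbours within 50 bases were at 20% to 80% for 54 of the 113 (47.8%) and for 4.29% of all dyads, and under 5% for 5 (4.42%) and for 85.4% of all dyads. Per 10000 dyads there were 0.107 unequal ones where neighbours were under 5%, 4.23 at 5% to 20%, 23.0 at 20% to 80%, 43.6 at 80% to 95% and 7.73 over 95%. Where a dyad had no listed neighbour the density was 15.8 per 10000. The median number of neighbouring cytosines within 50 bases was 6 around an unequal dyad and 14 around a listed dyad. Unequal dyads thus lay where listed CpG sites were sparser and less often unmethylated. This follows in part from the rule, which needs a level away from 0, while 84.8% of all dyads had both strands under 5%. No comparison with dyads of like level was made.

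**Figure D5:**
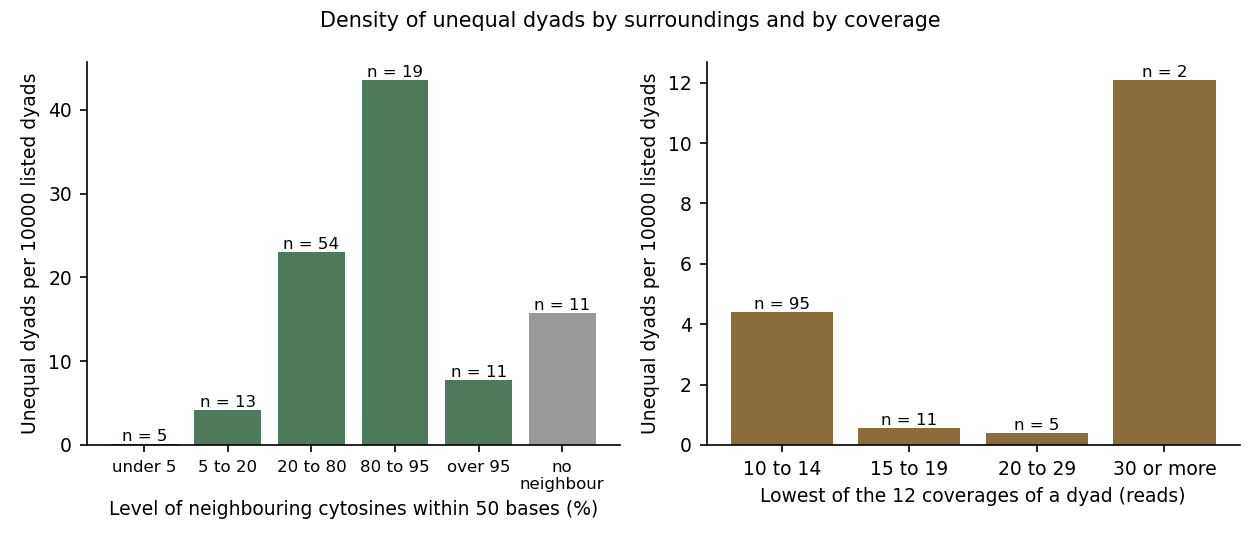
Unequal dyads per 10000 listed dyads (y axes) by the pooled level of the cytosines within 50 bases (left, %) and by the lowest of the 12 coverages of a dyad (right, reads); n is the number of unequal dyads. Density peaks at 43.6 where neighbours are at 80% to 95%, and the bar at 30 reads or more rests on 2 dyads.

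By chromosome, the density ran from 0 on chromosomes 16 and 19 to 4.13 per 10000 on chromosome 4, where 8 dyads (6 of them in runs) were found among 19362. Near the threshold, the dyads just inside were chr17:74412401-74412402 and chr14:67978332-67978333, whose second largest absolute difference over the rams was 40 and 40.1 points. Those just outside were chr7:22852654-22852655 at 39.7 and chr2:260232831-260232832 at 39.5 points. The first of the latter adjoined a run of unequal dyads on chromosome 7, so that run would have been longer by 1 dyad at a slightly lower threshold.

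To see whether the tilt of a dyad was found again in rams that did not choose it, dyads were chosen on the rams of a single diet, with 40 points in 2 or more of its 3 rams, and read in the rams of the other diet. Of 45 dyads chosen on control rams, 40 (88.9%) had the same mean direction in methionine-treated rams, and 12 were again at 40 points in 2 or more rams, all in the same direction. Their median difference, counted in the direction of the choice, was 40.5 points in the control rams and 22.5 points (quartiles 8.77 to 40.1) in the methionine-treated rams. Of 36 dyads chosen on methionine-treated rams, 35 (97.2%) had the same mean direction in control rams, and 12 were at 40 points in 2 or more rams with that direction. These are the same 12 dyads as in the first choice, since both counts ask for 2 or more rams of each diet. The median was 41.5 points in the methionine-treated rams against 32.9 (16.4 to 53.0) in the control rams. The share of all dyads with the same mean direction in both diets was not counted. The direction was mostly found again, at a smaller size. These counts are descriptions over dyads, some of which lie in the same run. By exact pairs, 32 of the 76 dyads with 2 rams at the threshold had rams of the same diet (6 possible pairs) and 44 had rams of different diets (9 possible pairs).

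The diet comparison asked whether methionine feeding changed methylation at these dyads. Averaged over the 113 dyads and both strands, the level was 55.5%, 54.3% and 58.0% in control rams and 57.0%, 49.6% and 52.0% in methionine-treated rams. The means were 55.9% ± 1.90 and 52.9% ± 3.78 (SD, n = 3 rams each), a difference of -3.04 points (exact two-sided permutation test, p = 0.3). Over all listed dyads the means were 7.17% ± 0.441 and 6.84% ± 0.676 (p = 0.6 by the same exact permutation test). The mean strand difference, counted toward the strand that was higher in the pooled reads, was 33.0, 30.9 and 28.1 points in control rams and 34.5, 20.2 and 23.1 points in methionine-treated rams. The means were 30.7 ± 2.49 and 25.9 ± 7.59 points (n = 3 rams each, exact permutation p = 0.4). The diets overlapped in both measures, with Ram424 the highest of the 6 rams in the second, and with 3 rams against 3 the smallest p this test can give is 0.1. The rule chose the dyads by the strand differences of these same rams, which also set the direction of each strand. Nothing is therefore read from the diet comparison of the second measure.

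At single cytosines, diet was tested by logistic regression with an overdispersion of at least 1 and a chi-square test at all 1850625 cytosines, and differentially methylated cytosines (DMCs) were those that differed by more than 20 points at q under 0.01 after Benjamini-Hochberg adjustment. DMCs numbered 341, or 0.0184% of cytosines, and 2 of the 226 cytosines of unequal dyads (0.885%) were among them. The rule used the levels of the same rams, so nothing is read from this share. The 341 are not the paper's DMCs, which were fewer and came from methylKit with ram age in the model. Age per ram is not in the labels and was left out here. An unadjusted p under 0.05 was found at 32 of the 226 cytosines (14.2%) and at 2.94% of all.

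Both DMCs were plus-strand cytosines whose dyads were unequal in the 3 control rams and in no methionine-treated ram. At chr26:28482060-28482061 the plus strand was at 50%, 42.9% and 31.0% in control rams and at 100% in each methionine-treated ram, a difference of 60 points (q = 2.78e-12 by the logistic regression). The minus strand was at 91.7%, 100% and 100% in control rams and at 91.3%, 100% and 100% in methionine-treated rams (q = 1). At chr22:53853730-53853731 the plus strand was at 37.5%, 48.4% and 57.7% in control rams and at 100%, 100% and 94.4% in methionine-treated rams, a difference of 50.1 points (q = 3.12e-07 by the same regression), with the minus strand at 94.7% or more in all 6 rams. At both places the diets did not overlap on the plus strand and did on the minus strand. Both belong to the 34 dyads with a strand over 95%. The minus strand had 12 to 14 reads in each control ram and 16 to 23 in each methionine-treated ram at the first place, and 12 to 15 against 14 to 28 at the second, while the plus strand had 18 to 29 against 11 to 32 and 24 to 31 against 17 to 22. Both calls were lost with an F test in place of the chi-square test, which called none of the 1850625 cytosines.

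Whether diet changed the difference between strands was tested at all 546943 dyads by a strand-by-diet term in the same kind of regression, an analysis added after the values were seen. No dyad passed a q of 0.05 (0% of dyads called), and the smallest q was 0.326. An unadjusted p under 0.05 was found at 9 of the 113 unequal dyads (7.96%) and at 2.75% of all dyads. The rule used the strand differences of the same rams, so nothing is read from this share. The smallest among the 113 were 0.000198 at chr26:28482060-28482061, where the plus strand lay 55.9 ± 13.7 points below the minus strand in control rams and 2.90 ± 5.02 points above it in methionine-treated rams, and 0.00441 at chr1:175578154-175578155 (logistic regression across all dyads, q = 1 for both). limma with a trend on the difference per ram, the test first planned, called 19 dyads, none of them among the 113. It called 487 to 3068 dyads with each ram left out and none on logit levels, again with none of the 113. An unadjusted p under 0.05 was found at 2 of the 113 and at 10647 of all dyads. On simulated reads limma found 0 of 200 changes of 40 points and called 133 unchanged dyads, so nothing is read from its calls or their lack. The added regression found 18 of 200 such changes. With 3 rams a diet, the lack of calls does not show that the strand difference was the same under both diets.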

How the data were processed

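RRBS of sperm was analysed from 3 control and 3 methionine-treated rams. Reads were trimmed and aligned by the authors to Oar_rambouillet_v1.0 with Bismark (bowtie2), with duplicates removed by molecular barcode, and deposited as counts of methylated and unmethylated reads per cytosine, strand and ram. In every case the coverage equalled the sum of these counts, and the lowest was 10. The median coverage per strand over listed dyads was 23.0 to 43.0 reads per ram. Embryo RNA counts were not used here.

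Groups were taken from the labels. Dyads were plus-strand cytosines whose minus-strand partner at the next base was also listed, on the numbered chromosomes (60.3% of their 1813357 cytosines). Strand differences were compared with 40 points in whole-number arithmetic. Pooled levels sum the reads of 6 rams, neighbours lie within 50 bases, and runs join unequal dyads no more than 100 bases apart. No genome or annotation of the build was at hand, so sequence, genes and CCGG sites are not analysed here. The members and lists were chosen with earlier results of these data known.

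Diet was tested by logistic regression at 1850625 cytosines, by limma 3.58.1 (R 4.3.3) and by the added strand-by-diet regression at 546943 dyads, with Benjamini-Hochberg adjustment over all features, and by exact two-sided permutation tests over 20 assignments of rams. Both regressions and limma, but not the permutation tests, were tested on simulated reads. There limma found none of the changes and called dyads that had not changed, while the added regression found a small part of the changes without false calls. The regression at single cytosines found 16 of 100 changes of 30 points and 71 of 100 changes of 50 points. For the regressions, simulated rams of a diet differed by counting only, so the lack of false calls need not hold for the real rams. The genes or sites to be named were to be the 5 dyads of each direction passing in 6 rams at 20 reads or more, dyads with a DMC, the largest run and the dyads nearest to the threshold. The first of these held no dyad, and other dyads were named after their values were seen. Other steps ran in Python 3.11.15 (scipy 1.17.1, numpy 2.4.6, pandas 2.3.3), and plots were drawn with matplotlib 3.10.9. The alternatives were other thresholds, numbers of rams, coverage limits and tests, and each ram left out in turn. Nothing in the labels says that libraries were repeated, so the spread is that between rams.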

Additional observations from a re-analysis of the deposited data

Results flagged for a closer look

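The 4652 listed dyads of the X chromosome and the 2025 of unplaced contigs were outside the comparisons. On the contigs 17 dyads met the same rule, or 0.840% (95% Wilson interval 0.525 to 1.34), against 0.0207% on the numbered chromosomes. On the X chromosome none did, with an upper limit of the interval of 0.0825%. Groups of 3 rams were too small for a check of single rams that stand apart.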

How the results depend on the processing

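The number of unequal dyads followed the rule closely. It was 741 at 30 points and 36 at 50 points, 37 with 3 or more rams and 4 with all 6 rams, and 7 with at least 20 reads on each strand of each ram, against 113. It was 106 where the rams had to share a direction and 110 without dyads above the coverage limit of 270 to 336 reads, and with each ram left out it was 76 to 102. The share with the plus strand higher was 75% of the 4 dyads in all 6 rams and 0% of the 7 dyads with at least 20 reads, against 50.4%, and 47.7% to 54.8% with a ram left out. The 2 DMCs became 0 with an F test and 11 without the overdispersion correction. With at least 20 reads in each ram there were 0, but that limit left both cytosines untested, since their lowest coverages were 17 and 11 reads. With each ram left out there were 2 to 4, both original ones included each time, namely 4 without Ram424 and 4 without Ram498. The DMCs over all cytosines, 341 in the main analysis, were 446 to 1424 with each ram left out (854 without Ram410, 643 without Ram444, 1424 without Ram424 and 559 without Ram498), 5905 without the overdispersion correction, 529 at q under 0.05 and 61 of 630532 with at least 20 reads. For the strand difference between diets, limma called none of the 113 in any alternative. The sign of both mean differences between diets held in all 9 alternatives each. The alternatives use the same rams and dyads or part of them, so little is read from this. With each ram left out the differences were -5.40 to -1.49 points for the level and -10.9 to -2.18 points for the strand difference, the last range set by Ram424 and Ram498. Against -4.74 points, the strand difference between diets was -12.2 as a median, -11 in the dyads of all 6 rams and -14.7 with at least 20 reads, and against -3.04 points the level difference was -5.88, -2.49 and -3.88. The share of dyads in CCGG sites was not run, since it needs a genome of the build. No paired analysis was possible because the rams of the diets share no numbers.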
